A study of Canis lupus familiaris with 15 samples.

Results

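Molecular chaperones fold and refold proteins, and the proteasome degrades those marked for destruction; the transcripts of both systems were compared in canine osteosarcoma cells. The genes were chosen by symbol alone: the heat-shock proteins HSPA, HSPB, HSP90A, HSPH1, HSPD1 and HSPE1, the J-proteins DNAJA, DNAJB and DNAJC, the BAG co-chaperones, the cytosolic chaperonin genes CCT and TCP1, and the proteasome genes PSMA to PSMG. The chaperones of the endoplasmic reticulum HSPA5, DNAJB9, DNAJB11 and DNAJC3 and the immunoproteasome subunits PSMB8, PSMB9 and PSMB10 were left out. In all, 69 of the 7698 genes listed in at least 1 of 3 comparisons belonged here, 42 of them chaperones or chaperonins and 27 proteasome genes. The canine RefSeq annotation UU_Cfam_GSD_1.0 holds 126 protein-coding symbols that match these names, of which 67 were listed. The count includes PSMC3IP and PSME3IP1, which match by name but are not proteasome components and were not listed. The remaining 59, among them HSPA8, HSP90AB1, HSPE1, DNAJB1, DNAJA1 and BAG3, were not among the listed genes analysed here, and nothing is said of their levels.

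The 15 RNA-seq libraries fall into 5 groups of 3. The lines D17 and HMPOS each have an extravasated and a parental group, and POS has a parental group alone. All are established dog osteosarcoma lines without a genetic alteration or drug named for any group, and HMPOS is a highly metastatic line derived from POS. Extravasated cells had been infused into zebrafish, left the vessels as clusters, were dissected out with the surrounding tissue and were expanded in culture before RNA was taken. The implanted embryos were kept cooler than the cell cultures, and the isolation used a bleaching solution and a dissociating enzyme. Parental cells were cultured and never entered a fish, so that the vessel exit, the stay in the fish, the isolation and the regrowth cannot be told apart. The sample records number the libraries of a group from 1 to 3 and give no origin for each. The article treats isolated extravasated clusters as biological replicates, while no separate cultures are described for the parental libraries.

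The authors deposited 1 value per group and gene, in FPKM, a fragment count corrected for the length of the transcript and the size of the library. The value pools the 3 libraries and was given only for genes that they marked as different between the groups. The depth of the libraries and the spread between them are therefore unknown here, and an SD could not be computed. Every listed gene had passed the authors' own test, but the statistics of that test were not used and no new test was run. The sizes of the differences below could thus not be checked against single libraries. Every ratio below is the log2 of the first named group over the second, without a pseudocount, and a fold above 2 is used as the only size threshold. The groups are named in the tables by short codes, and the code shared with POS, which has parental libraries alone, was read as parental. The parental HMPOS values of 907 genes listed in 2 tables differed by at most 0.0033 on the log2 scale, so that code has the same content in both. Which group is extravasated rests on the codes alone, is in doubt and is not settled by any value here, so it should be checked before a direction for extravasated cells is used. Were the codes of the D17 table exchanged, every D17 direction below would turn around, with every statement that sets it beside another comparison. Were those of the HMPOS table exchanged, its directions would turn around as well. Because the parental code has the same content in both tables, what is called parental HMPOS against POS would then be extravasated HMPOS against POS. Since the cultures were sequenced in bulk, fewer cells with a transcript and less RNA per cell cannot be told apart.

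Markers of bone-forming cells were listed in every comparison. In D17 cells 3 of 8 were listed, all higher in the extravasated group, with a summed level of 1782 FPKM in the extravasated and 722 FPKM in the parental group and COL1A2, a fibrillar collagen chain, as the most abundant. In HMPOS cells 4 of 8 were listed, 3 higher and IBSP lower (-2.26), with sums of 228 and 146 FPKM and COL1A1 as the most abundant. Between HMPOS and POS 4 of 8 were listed, 3 lower in HMPOS and SP7 higher (0.39), with sums of 159 and 945 FPKM and the osteocalcin gene BGLAP leading in POS. None of the 4 haematopoietic markers was listed. Of the 5 endothelial markers, KDR alone was listed, at 0.146 FPKM in HMPOS against 1.73 FPKM in POS. Of the 5 epithelial markers, EPCAM and CDH1 were listed in D17 cells and CDH1 alone in the other comparisons, none above 4.30 FPKM. The part of these differences in the values below was not tested.

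Chaperones of the HSP70 class bind short hydrophobic stretches of unfolded proteins, with J-proteins delivering the substrate and starting ATP hydrolysis and HSP110 and BAG proteins exchanging the nucleotide. HSP90 matures kinases and hormone receptors, small heat-shock proteins hold unfolding proteins, and the ring-shaped chaperonins TRiC in the cytosol and HSP60 in mitochondria enclose their clients, actin and tubulin being the best known of TRiC. The proteasome consists of a proteolytic 20S core and a 19S cap that recognises, unfolds and translocates ubiquitinated proteins, and drugs that block it are used against myeloma.

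In D17 cells, extravasated against parental, 50 of the 4412 listed genes belonged to these families. Of 31 chaperones, 12 were higher and 19 lower after extravasation as the codes were read (median log2 ratio -0.43), and of 19 proteasome genes 2 were higher and 17 lower (median -0.48). Over all genes listed in that comparison 54.2% were higher and the median was 0.39. Past a fold of 2, where 18.3% of all listed genes were higher and 8.5% lower, there was 1 chaperone in each direction and no proteasome gene. The members thus lay more often on the lower side than the listed genes as a whole, and 48 of the 50 differed by less than a fold of 2. When ratios were taken relative to the median of 0.39, DNAJC18 and PSME2 turned from higher to lower and no other member changed its side. That median depends on abundance. Among the 1369 other genes whose geometric mean of both groups was at least 30 FPKM, a limit chosen after the data were seen, 46.5% were higher and the median was -0.33. The smallest ratio of any of these genes was 0.28 in size, so the median jumps across 0 when the share passes 50%, and at 100 FPKM it was 0.32 again. Relative to -0.33 the medians were only -0.10 for chaperones and -0.15 for proteasome genes, and PSME4 turned to the higher side. These medians take all members, of which 19 of 31 chaperones and 17 of 19 proteasome genes reached the limit. With at least 30 FPKM in the higher group for members and others alike, 2 chaperones were higher and 18 lower (median -0.51). Of proteasome genes 2 were higher and 16 lower (-0.49), and of 1635 others 46.2% were higher (-0.34).

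The listed HSP90, HSP60 and HSP110 genes were lower in extravasated D17 cells, and HSP90AA1 and HSPD1 were among the most abundant members. HSP90AA1, the stress-inducible cytosolic HSP90, stood at 851 FPKM after extravasation against 1317 FPKM before (log2 ratio -0.63). HSPD1, the HSP60 subunit that folds proteins imported into mitochondria, was at 617 and 1037 FPKM (-0.75). HSPH1, the HSP110 protein that releases ADP from HSP70, was at 53.6 and 89.96 FPKM (-0.75). Each of these extravasated levels was between 59.4% and 64.6% of the parental level. Of the 3 listed HSP70 genes, HSPA14, which binds the ribosome together with DNAJC2, was at 27.9 and 37.4 FPKM (-0.42), and HSPA4, an exchange factor related to HSPH1, gave a ratio of -0.50. HSPA1L, an HSP70 mostly known from testis, went the other way at low levels of 2.66 and 1.70 FPKM (0.65). It is nearly identical to other HSP70 genes, between which reads may have been split, so its value is uncertain.

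All 6 listed genes of TRiC were lower in extravasated D17 cells, with log2 ratios from -0.63 to -0.36. They stayed lower relative to the median of all listed genes. Relative to that of the abundant ones, with the limit at 30 FPKM, they were lower by no more than 0.29 and, at the smallest, 0.03. With the limit at 100 FPKM they lay between -0.95 and -0.68 relative to the median. Their summed level was 3193 FPKM against 4526 FPKM in the parental cells. CCT6A differed most, at 173 against 267 FPKM (-0.63). CCT8 was at 788 against 1061 FPKM (-0.43). The subunits therefore differed little from one another in the size of the shift, CCT5 having the smallest, at 159 against 204 FPKM (-0.36). CCT2 was the most abundant member in any table, at 1513 and 2231 FPKM (-0.56). Although the complex holds its subunits in equal numbers, the highest of the 6 transcripts was 10.9 times the lowest in parental and 9.52 times in extravasated D17 cells. TCP1 overlaps the locus of ACAT2, a thiolase of lipid metabolism, so its ratio of -0.46 is less certain where reads of the overlapping genes were divided.

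Small heat-shock proteins and J-proteins did not share one direction. HSPB1, the actin-stabilising HSP27, was higher in extravasated D17 cells at 682 against 470 FPKM (0.54), whereas HSPB8, which works with BAG3 in selective autophagy, was lower at 118 against 160 FPKM (-0.44). Of 17 J-proteins 10 were higher and 7 lower, or 9 and 8 once DNAJC18 is taken relative to the median, while of the 14 other chaperones 2 were higher and 12 lower. DNAJC9, a J-protein that escorts histones H3 and H4, was the only member lower by more than a fold of 2, at 82.8 against 208 FPKM (-1.33). DNAJC21, which acts in the maturation of the large ribosomal subunit, followed among the J-proteins at 23.5 against 38.3 FPKM (-0.70). Of the higher J-proteins the most shifted were scarce, and others were not. DNAJA4, a cytosolic J-protein, was the only member higher by more than a fold of 2, but at levels of 1.33 and 0.492 FPKM (1.44). Its nearest neighbour below the threshold, DNAJB5, was also scarce, at 1.07 and 0.572 FPKM (0.91). Smaller positive ratios belonged to J-proteins of several compartments. DNAJC30 of mitochondria was at 16.4 and 9.85 FPKM (0.74). DNAJB14 of the endoplasmic reticulum membrane was at 8.79 and 5.71 FPKM (0.62), and the membrane-spanning DNAJC22 at 8.03 and 5.71 FPKM (0.49).

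**Figure D1:**
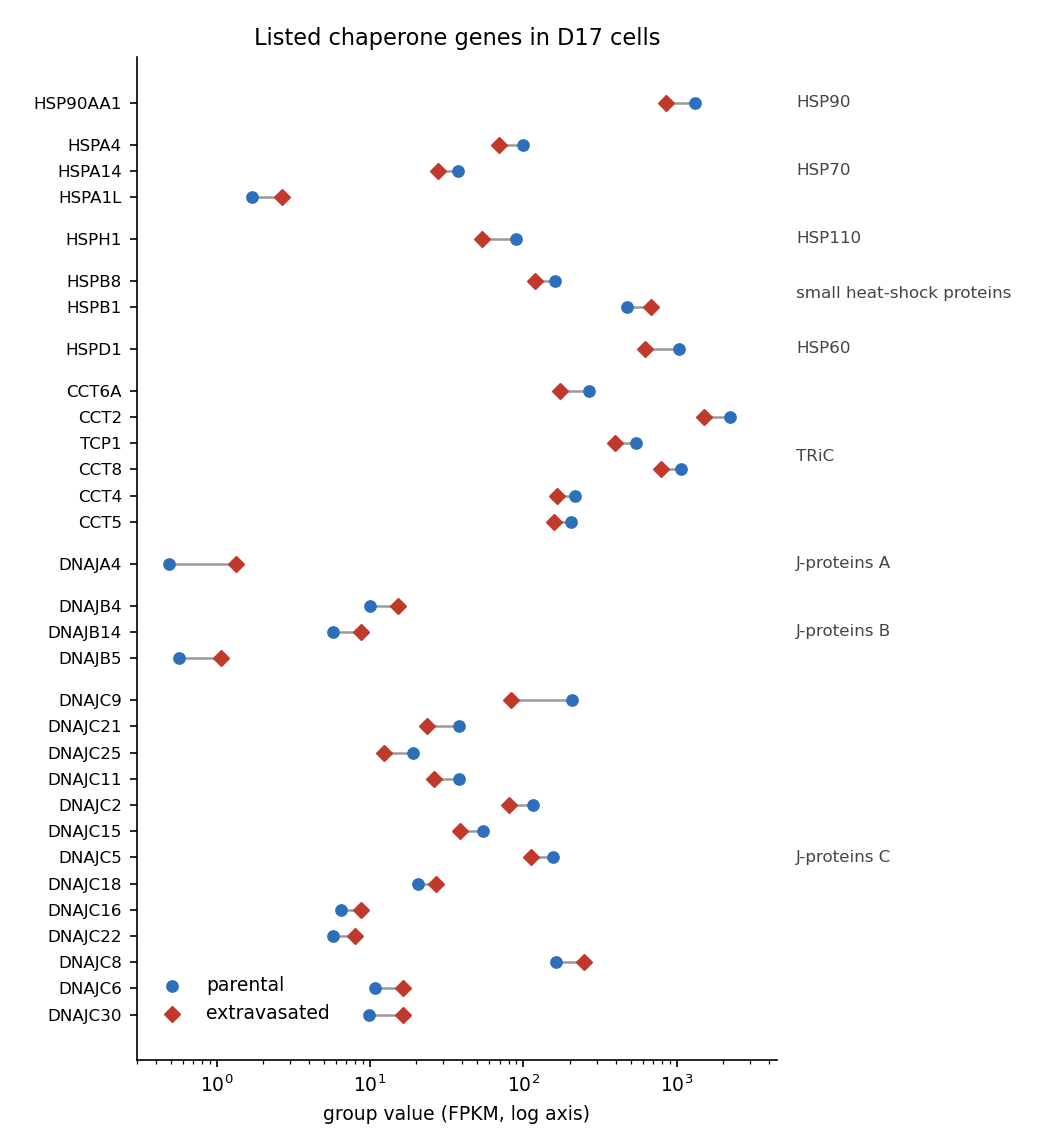
Group values in FPKM (log axis) of the 31 chaperone genes listed in D17 cells, with circles for parental and diamonds for extravasated cells, each the authors' value pooled over 3 libraries, and families named at the right. HSP90AA1, HSPD1, HSPH1 and all 6 TRiC genes had the lower value in extravasated cells, while DNAJA4 and DNAJB5, both higher, were the scarcest of the 31; DNAJC18 lies on the lower side relative to the median of all listed genes.

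The lower chaperones in D17 were more abundant than the higher ones. Taking the geometric mean of both groups as the level, the 19 lower chaperones had a median of 132 FPKM and the 12 higher ones 9.92 FPKM, against 19.5 and 10.5 FPKM for the other listed genes. Among J-proteins alone the medians were 45.9 FPKM for the 7 lower and 9.92 FPKM for the 10 higher. Abundant exceptions were HSPB1 and the splicing-associated DNAJC8, the latter higher at 250 against 163 FPKM. Proteasome genes did not show this pattern, with medians of 90.4 FPKM for the 17 lower and 135 FPKM for the 2 higher.

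Every listed structural subunit of the proteasome, 2 of the 20S core and 10 of the 19S cap, was lower in extravasated D17 cells, also relative to the median of all listed genes and to that of the abundant ones. The log2 ratios of these 12 genes lay between -0.76 and -0.36, and their summed level was 1507 FPKM against 2154 FPKM in the parental cells. PSMC1, an ATPase of the ring that unfolds substrates, differed most, at 187 against 317 FPKM (-0.76). PSMC2, another ATPase and the most abundant proteasome transcript in D17 cells, was at 245 against 327 FPKM (-0.42). PSMC5 of the same ring was at 212 against 299 FPKM (-0.49). The non-ATPase subunits of the cap, some of which belong to its base and others to its lid, spanned a similar range. The scaffold subunit PSMD1 was at 79.1 against 122 FPKM (-0.62). The lid subunits PSMD11 and PSMD12 were at 39.2 against 59.9 FPKM (-0.61) and at 68.0 against 89.7 FPKM (-0.40). PSMD14, the enzyme that strips ubiquitin from substrates as they enter, had the smallest difference among the cap subunits, at 79.8 against 102 FPKM (-0.36). Genes that build or block the core, rather than form it, had the same direction. The 3 assembly chaperones, PSMG1, PSMG2 and PSMG3, which pair and place the alpha subunits, were lower by ratios from -0.61 to -0.48. PSMF1, known as an inhibitor of the 20S core in vitro, was at 41.6 against 59.4 FPKM (-0.51).

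The activators of the core were split, with 2 higher and 1 lower. PSME1 and PSME2, the subunits of the interferon-inducible 11S cap PA28, were the 2 proteasome genes higher in extravasated D17 cells, PSME1 at 59.0 against 44.6 FPKM (0.40) and PSME2 at 243 against 196 FPKM (0.31). Relative to the median of 0.39 PSME2 fell on the lower side. They are neighbours on chromosome 8 of CanFam3.1, PSME1 at 4130491 to 4136254 and PSME2 at 4137068 to 4140686. PSME4, the nuclear activator PA200, was lower, at 14.9 against 18.4 FPKM (-0.30). Of the immunoproteasome genes left out by the rule, which replace core subunits after interferon, PSMB9 was at 19.7 against 7.09 FPKM (1.47) and PSMB8 at 2.16 against 0.129 FPKM (4.06).

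**Figure D2:**
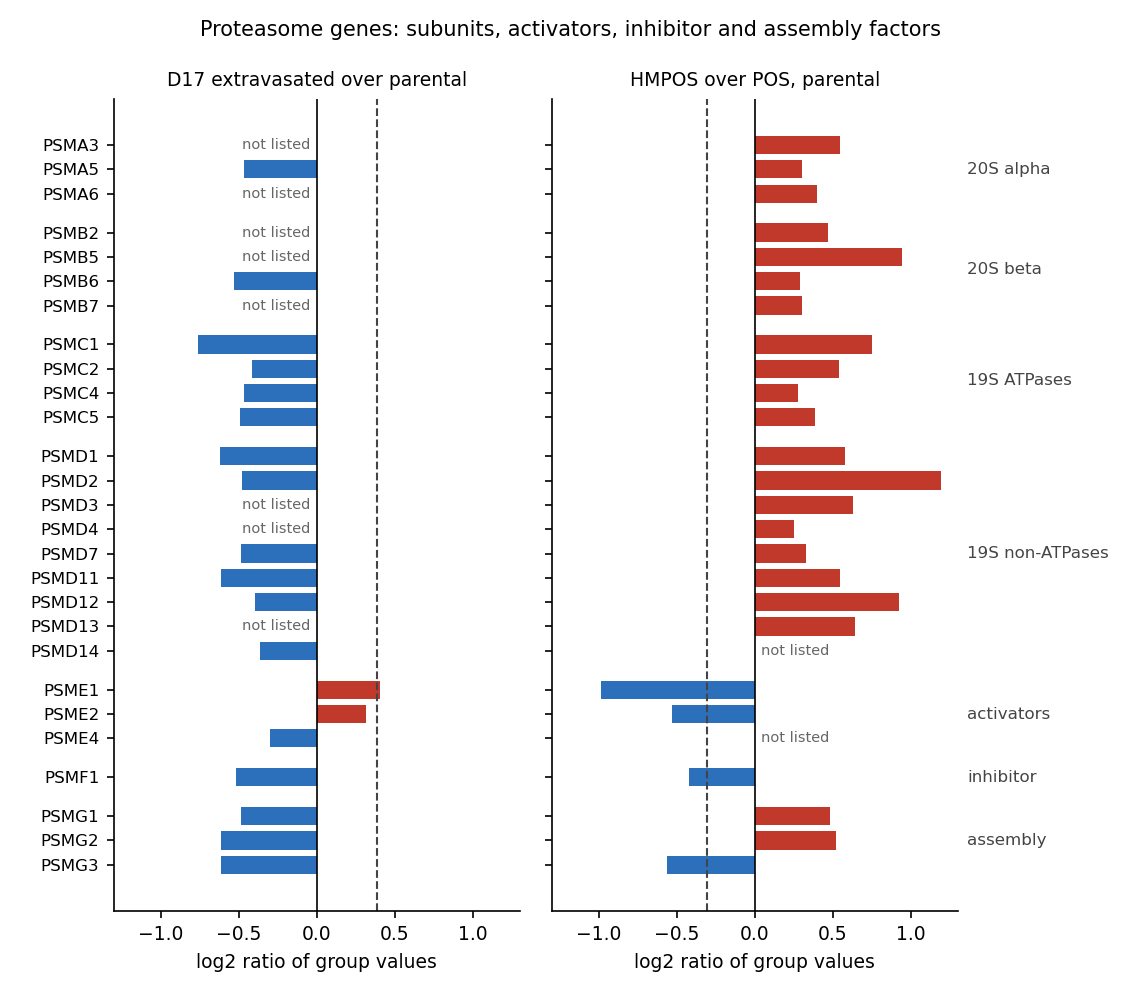
Log2 ratios of the proteasome genes by class, in D17 extravasated over parental cells (left) and in parental HMPOS over parental POS cells (right). Each ratio comes from 2 group values that pool the libraries of a group. The dashed line is the median of all genes listed in that comparison, 0.39 and -0.31. All listed 20S and 19S subunits lie below 0 on the left and above 0 on the right, and PSME1 and PSME2 lie on the opposite sides, PSME2 below the median on the left.

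Partners of the 2 systems, from a list drawn up from general knowledge, were read in the same way. Of 33 chaperone partners 15 were listed in D17 cells, 4 higher and 11 lower (median -0.44), and of 29 proteasome partners 12 were listed, 4 higher and 8 lower (median -0.45). ZFAND2A, an arsenite-inducible protein that attaches to the 19S cap, was at 39.4 FPKM, against 151 FPKM in the parental cells (-1.94). FKBP4, the immunophilin that links HSP90 to steroid receptors, was at 240 and 674 FPKM (-1.49). DDI2, the protease that cuts and activates the transcription factor NFE2L1, was at 6.92 and 12.7 FPKM (-0.88). The transcription factor and its protease thus had opposite directions. NFE2L1 itself, which drives proteasome subunit genes when the proteasome is impaired, was higher at 53.3 against 24.5 FPKM (1.12), alongside lower values of all 12 listed subunit genes. Also higher were the heat-shock factor HSF4, at 18.6 against 7.396 FPKM (1.33), and the small heat-shock protein CRYAB, at 6.79 against 3.22 FPKM (1.08). HSF1 was not among the listed genes.

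In HMPOS cells, extravasated against parental, 7 of the 1189 listed genes belonged here, of which 5 were lower and 2 higher as the codes were read. The 6 chaperones were split into 2 higher and 4 lower, with a median of -0.44, and the single proteasome gene was lower. Over all genes listed for HMPOS 67% were higher and the median was 0.58. No member passed a fold of 2, where 20.5% of all listed genes were higher and 4.79% lower. Relative to the median of 0.58, HSPB1 turned to the lower side, which leaves 1 chaperone higher and 5 lower. It stayed higher relative to the median of 0.44 of other genes with a geometric mean of at least 30 FPKM. With that limit at 100 FPKM the median was 0.53, and HSPB1 lay on the lower side again.

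None of the TRiC genes, J-proteins or structural proteasome subunits was listed for HMPOS, which says nothing about whether they differed. The 3 HSP70 genes were all lower. HSPA4L, an exchange factor of the HSP110 kind, was at 17.2 against 24.0 FPKM (-0.48), and HSPA14 at 14.2 against 19.4 FPKM (-0.45). HSPA2, best known from spermatocytes, was at 43.0 against 58.4 FPKM (-0.44). Members that assist other machines were also lower. BAG2, which restrains the ubiquitin ligase bound to HSP70, was at 39.8 against 57.1 FPKM (-0.52). PSMG2, the partner of PSMG1 in alpha ring assembly, was at 64.1 against 92.4 FPKM (-0.53) and was the only proteasome gene listed.

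Both higher members were small heat-shock proteins. HSPB1 was at 147 against 107 FPKM (0.46), and HSPB6, the muscle-enriched HSP20, at 7.54 against 3.92 FPKM (0.94), just inside a fold of 2. Members listed for both D17 and HMPOS were 3, each with the same direction in both lines before the median was subtracted. HSPA14 gave -0.42 in D17 and -0.45 in HMPOS, PSMG2 gave -0.61 and -0.53, and HSPB1 gave 0.54 and 0.46. These 3 made up 6% of the members listed in D17 and 42.9% of those listed in HMPOS. For genes of any kind, 614 symbols were listed in both lines, beside 4412 genes listed in D17 and 1189 in HMPOS. Of these 614 symbols, 12.9% had opposite directions. Were the codes of a single table exchanged, all 3 members would have opposite directions. So would the 382 symbols higher in both lines and the 153 lower in both, and only the other 79 would share a direction.

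Few partners were listed in HMPOS. The 19S-bound deubiquitinase UCHL5 was at 20.9 against 31.5 FPKM (-0.59). The segregase VCP, which pulls ubiquitinated proteins out of complexes, was at 361 against 510 FPKM (-0.50). UBE3A, a ubiquitin ligase, was at 24.0 against 32.2 FPKM (-0.42). All 3 were lower, as was GRPEL2, an exchange factor of mitochondrial HSP70, at 7.29 against 9.94 FPKM (-0.45). SQSTM1, the autophagy receptor p62, was higher at 125 against 80.9 FPKM (0.63), and so was HSF4 at 10.1 against 6.76 FPKM (0.59).

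Between the parental lines, HMPOS against POS, 54 of the 5746 listed genes belonged here, and most were higher in HMPOS. Of 29 chaperones 25 were higher and 4 lower, with a median of 0.44, and of 25 proteasome genes 21 were higher and 4 lower, with a median of 0.47. Over all genes listed between the 2 lines 47.7% were higher and the median was -0.31. Past a fold of 2, where 8.49% of all listed genes were higher and 19.1% lower, there were 3 chaperones higher and 2 lower and 1 proteasome gene higher. No member changed its side when the median of -0.31 was subtracted, DNAJC18 lying almost at it. Among the 1812 other genes with a geometric mean of at least 30 FPKM, however, 59.1% were higher and the median was 0.33. Relative to 0.33, CCT2, PSMA5, PSMB6, PSMB7, PSMC4, PSMD4 and PSMD7 turned to the lower side, which left 24 chaperones and 15 proteasome genes higher, with medians of only 0.10 and 0.14. With the limit at 100 FPKM the median was 0.28, and only PSMC4 and PSMD4 turned. That left 25 chaperones and 19 proteasome genes higher, with medians of 0.16 and 0.19. These counts and medians take all members, of which 18 of 29 chaperones and 23 of 25 proteasome genes reached 30 FPKM. With at least 30 FPKM in the higher group for members and others alike, 18 chaperones were higher and 1 lower (median 0.50). Of proteasome genes 21 were higher and 3 lower (0.48), and of 2216 others 57.1% were higher (0.33).

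Among the chaperones the HSP70, HSP110, HSP90 and HSP60 genes were all higher in HMPOS, 10 of 10 listed, with summed levels of 3618 FPKM against 2628 FPKM. HSPA4L had the largest ratio of these, at 24.0 against 7.15 FPKM (1.75). HSP90AA1 was the most abundant member in this comparison, at 1762 against 1234 FPKM (0.51), and HSPD1 stood next, at 1380 against 1067 FPKM (0.37). Low in both lines, HSPA1L was at 2.58 against 1.38 FPKM (0.91).

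All 7 listed TRiC genes were higher in HMPOS, with ratios between 0.29 and 1.58 and sums of 2226 against 1329 FPKM. CCT5 was at 424 against 142 FPKM (1.58). CCT6A was at 376 against 200 FPKM (0.91). At the other end, CCT2 was at 225 against 184 FPKM (0.29). The subunits thus differed more in the size of the shift than in D17 cells, while their levels were closer together. The highest of the 7 transcripts was 2.79 times the lowest in HMPOS and 3.24 times in POS.

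J-proteins held the extremes of the comparison. DNAJA4 was at 0.168 FPKM in HMPOS against 14.4 FPKM in POS (-6.42), the lowest ratio of any member, and DNAJC22 at 9.51 and 1.08 FPKM (3.14), the highest. The other 6 listed J-proteins lay between -0.31 and 0.87, DNAJC18 being the lowest at 17.7 against 21.9 FPKM. Of small heat-shock proteins, HSPB8 was at 54.3 against 116 FPKM (-1.10), just past a fold of 2, and HSPB11, which despite its symbol is a component of intraflagellar transport, at 11.9 against 16.5 FPKM (-0.48). BAG2 and BAG5 were both higher, by 0.59 and 0.34.

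All 19 listed structural subunits of the proteasome were higher in HMPOS than in POS, 7 of the core and 12 of the cap. Their ratios lay between 0.25 and 1.19 and their summed levels were 4209 and 2994 FPKM. PSMD2, the scaffold subunit that docks ubiquitin receptors, was the only one past a fold of 2, at 247 against 108 FPKM (1.19). PSMB5, which carries the chymotrypsin-like active site and is the main target of proteasome inhibitors, was just inside it, at 116.5 against 60.6 FPKM (0.94). Other large ratios belonged to the cap. The lid subunit PSMD12 was at 196 against 103 FPKM (0.93), the ATPase PSMC1 at 137 against 81.3 FPKM (0.75) and the lid subunit PSMD13 at 109 against 69.97 FPKM (0.64). PSMB7, which carries the trypsin-like site and was the most abundant proteasome transcript, was at 633 against 514 FPKM (0.30). Also abundant were PSMA3, an alpha subunit of the core, at 469.6 against 322 FPKM (0.55), and the ATPase PSMC5, at 465 against 355 FPKM (0.39). The ubiquitin receptor PSMD4 had the smallest ratio, at 118 against 99.4 FPKM (0.25).

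The 4 lower proteasome genes lay outside the core and the cap. PSME1 was at 20.9 against 41.3 FPKM (-0.99), just inside a fold of 2, and PSME2 at 97.8 against 142 FPKM (-0.53). The assembly chaperone PSMG3 was at 15.2 against 22.4 FPKM (-0.56), unlike PSMG1 (0.48) and PSMG2 (0.52), and PSMF1 was at 45.7 against 61.2 FPKM (-0.42). The left-out PSMB9 was at 2.90 against 20.3 FPKM (-2.81) and PSMB8 at 0.135 against 2.37 FPKM (-4.14), so that the PA28 subunits and these immunoproteasome genes had the same sign here, as they had in D17 cells before subtraction of the median.

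Of the partners, 21 of 33 for chaperones were listed, 13 higher and 8 lower (median 0.47), and 11 of 29 for the proteasome, 6 higher and 5 lower (median 0.34). The 3 highest were HSP90 helpers and relatives. TRAP1, the mitochondrial HSP90, was at 83.7 against 45.2 FPKM (0.89). The cyclophilin PPID was at 86.6 against 47.3 FPKM (0.87), and FKBP4 at 250 against 139 FPKM (0.84). Lowest was the ubiquitin gene UBB, at 14.6 against 53.1 FPKM (-1.86). Ubiquitin genes hold repeated units and have near-identical copies, so the value of UBB is uncertain. HSBP1, which binds heat-shock factors, was at 194 against 536 FPKM (-1.47), and SQSTM1 at 80.8 against 193 FPKM (-1.25). Also past a fold of 2 were HSF4, at 6.75 against 14.7 FPKM (-1.13), and PFDN2, a subunit of the prefoldin that hands actin and tubulin to TRiC, at 73.3 against 151 FPKM (-1.05).

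The comparison of D17 cells and that of HMPOS with POS share no library, and their members can be set side by side. Of 36 members listed in both, 26 were lower in extravasated D17 cells and higher in HMPOS, 4 were the reverse, 3 were higher in both and 3 lower in both. These 36 made up 72% of the members listed in D17 and 66.7% of those listed between HMPOS and POS. For genes of any kind, 2620 symbols were listed in both, beside 4412 genes listed in D17 and 5746 between HMPOS and POS. Opposite directions were thus found for 83.3% of the members, close to the 77.9% of all 2620 symbols listed in both. The combination of lower in D17 and higher in HMPOS took 72.2% of the members and 35.5% of all symbols. With the D17 codes exchanged, opposite directions would be those of 16.7% of the members and 22.1% of all symbols, and this combination would take 8.33% and 12.5%. PSME1 and PSME2 were among the 4 of the reverse combination.

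**Figure D3:**
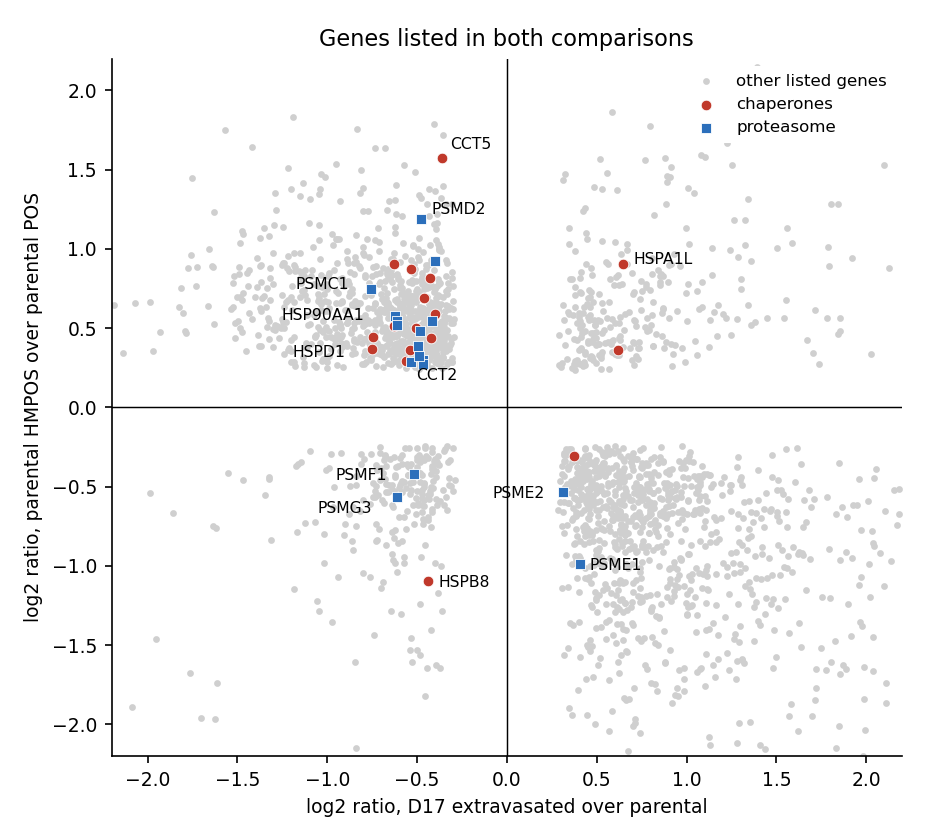
Log2 ratios in D17 extravasated over parental cells (horizontal) and parental HMPOS over parental POS cells (vertical) for the genes listed in both, grey for other genes, circles for chaperones and squares for proteasome genes. Most members fall in the upper left; DNAJA4, DNAJC22 and 236 of 2577 other genes lie outside the axes, which end at 2.2.

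Shared by both HMPOS comparisons were 5 members, and since the parental HMPOS libraries serve in both, the values are given only side by side. In the order POS, parental HMPOS and extravasated HMPOS, PSMG2 stood at 64.4, 92.4 and 64.1 FPKM and HSPA14 at 14.3, 19.4 and 14.2 FPKM. BAG2 stood at 38.0, 57.1 and 39.8 FPKM and HSPA2 at 45.7, 58.4 and 43.0 FPKM. For these 4 the extravasated HMPOS value was within 0.1 of the POS value on the log2 scale, which held for 22.5% of the 227 genes with these 2 directions and values in all 3 groups. HSPA4L differed from the others, at 7.15, 24.0 and 17.2 FPKM, with the extravasated value still 1.26 above POS on that scale. Values of POS and extravasated HMPOS come from different tables, between which the shared parental HMPOS values differed by at most 0.0033 on the log2 scale. Were the HMPOS codes exchanged, the group near POS would be the parental one and the high group the extravasated one.

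**Figure D4:**
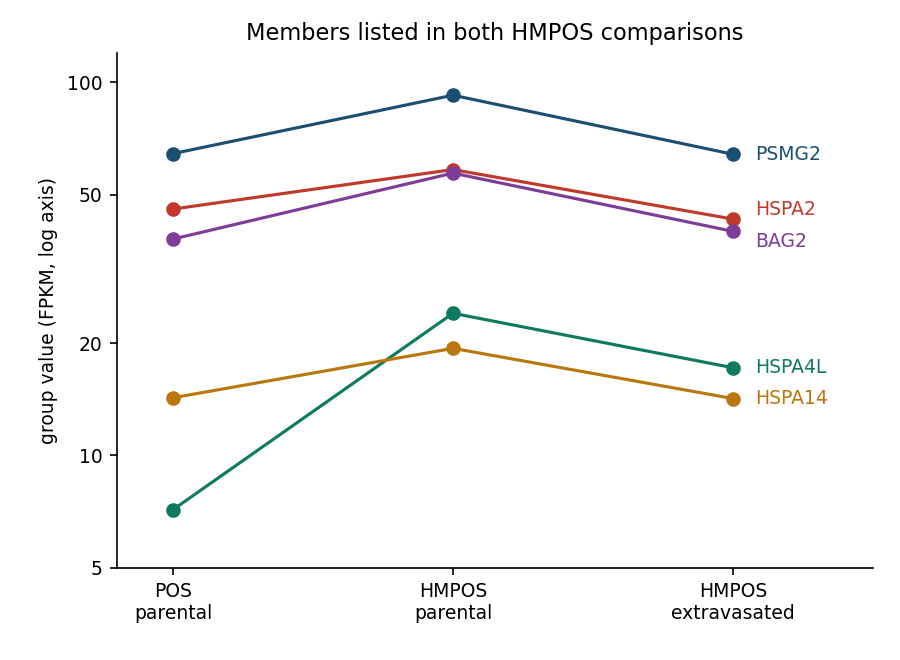
Group values in FPKM (log axis) of the 5 members listed in both HMPOS comparisons, in parental POS, parental HMPOS and extravasated HMPOS cells, each pooled over 3 libraries, with lines joining the values of 1 gene. Parental HMPOS is highest for all 5, which follows from their directions in the 2 comparisons, and extravasated HMPOS lies near POS for all but HSPA4L; both statements hold for the codes as read.

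The position of the genes was read beside the ratios, because listed genes of a chromosome often shared a direction between HMPOS and POS. CCT5, at 4032375 to 4049312 of chromosome 34 in CanFam3.1, and PSMD2, at 17180118 to 17189352 of the same chromosome, had the largest ratios of their complexes, and 89.4% of the 94 other genes listed there were higher in HMPOS, with a median of 0.96. HSPA4L lies on chromosome 19, where 87.5% of 80 others were higher. In contrast CCT2 and CCT4 lie on chromosome 10, where 10.2% of 235 others were higher, and both were still higher in HMPOS, CCT4 by 0.59. On chromosomes where fewer than 50% of the other listed genes were higher, 15 of 18 chaperones and 7 of 8 proteasome genes were higher in HMPOS. On the remaining chromosomes the counts were 10 of 11 and 14 of 17. PSME1 and PSME2 were lower on chromosome 8, where 77.1% of 205 others were higher. The part of the chromosome in single ratios was not tested.

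**Figure D5:**
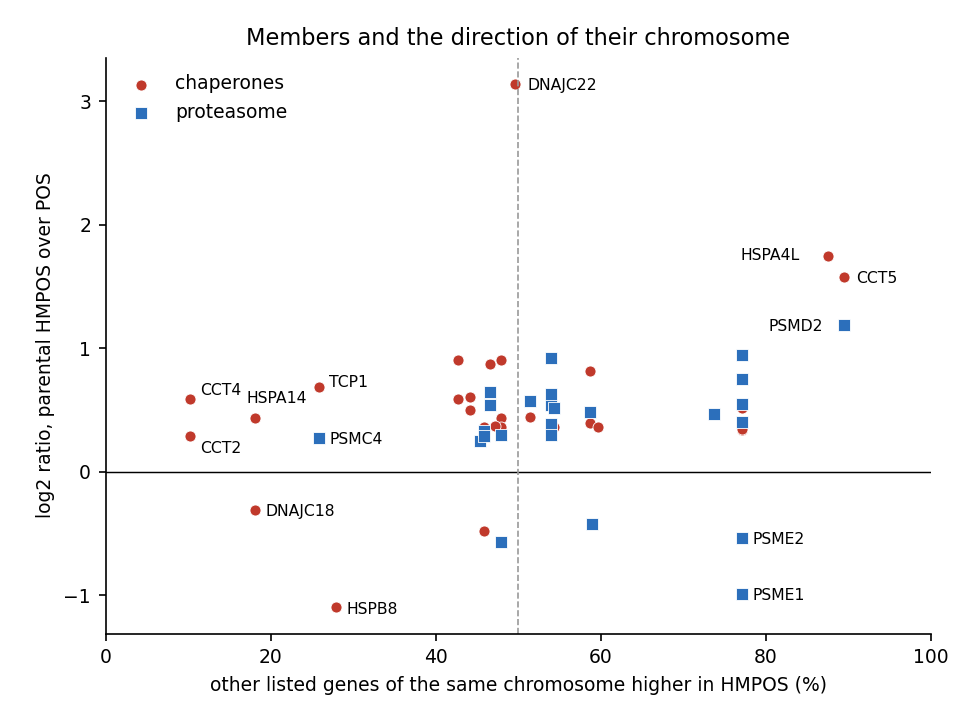
Log2 ratio of each member in parental HMPOS over parental POS cells against the share of other listed genes of its chromosome that were higher in HMPOS, in percent, with circles for chaperones and squares for proteasome genes and a dashed line at 50%. CCT5, PSMD2 and HSPA4L lie at the right end, while CCT2, CCT4 and TCP1 are above 0 at the left; DNAJA4, at -6.42, is outside the axes.

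Levels of the parental lines were also compared across the tables, which were normalized separately. For 36 members with values in parental D17 and parental HMPOS cells the D17 level was between 0.456 and 9.90 times the HMPOS level, with a median of 1.26, against a median of 0.898 over 2616 symbols. CCT2 had the highest ratio, 2231 FPKM in D17 against 225 FPKM in HMPOS, and CCT8 followed with 1061 against 303 FPKM, 3.50 times. At or above the ratio of CCT2 were 69 symbols, 2.64% of those compared. Were the D17 codes exchanged, the D17 levels given here would be those of extravasated cells, and parental D17 cells would have CCT2 at 1513 FPKM. Were the HMPOS codes exchanged, the HMPOS levels would likewise be those of extravasated cells. CCT2 lies at 11561450 to 11578297 of chromosome 10, and 3 other genes within 1 Mb of it, a distance chosen after the data were seen, were listed in both tables. The neighbours were not alike. FRS2, an adaptor of growth factor receptors, was at 7.49 times the HMPOS level in D17, with 40.1 against 5.35 FPKM, and the chromatin reader YEATS4 at 5.13 times, with 47.5 against 9.27 FPKM. CPM, a carboxypeptidase of the cell surface, was close to equal at 0.929 against 0.741 FPKM. Of the 7 neighbours listed in D17, NUP107 (-0.87), CPSF6 (-0.50) and RAB3IP (-0.34) were lower in extravasated cells, as CCT2 was, and FRS2 (0.83), YEATS4 (0.32), CPM (1.90) and PTPRB (0.60) were higher. Between HMPOS and POS all 4 listed neighbours, MDM2, CPM, YEATS4 and FRS2, were lower in HMPOS, whereas CCT2 was higher. Copy number was not measured in these tables.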

How the data were processed

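RNA of 15 libraries was sequenced. The authors deposited, per comparison, a Cuffdiff gene table with 1 FPKM value per group pooled over 3 libraries, restricted to genes they marked as significant. The submitters' processing notes name Trimmomatic 0.38, TopHat2, Cufflinks, Cuffdiff and CanFam3.1, whereas the article describes STAR, voom and limma, and the kits named for RNA and libraries also differ. The tables' log2 ratios, test statistics, p-values and q-values of the authors' comparisons were not used. No column of a single sample was left unused.

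Members were matched by symbol, with 1 row per symbol, and log2 ratios were computed from the deposited FPKM values, without a pseudocount. Counts and medians were set beside those of all listed genes, and called means a fold above 2. No test was run, since no value per library was analysed here. Named members were those past a fold of 2, the 5 highest and 5 lowest ratios and the 3 most abundant genes of each comparison within chaperones and within proteasome genes, those in all 3 tables, the 2 nearest on each side of a fold of 2, and, of the partners, those past a fold of 2 and the 3 highest and 3 lowest. HSPA4, CCT4, TCP1, DNAJC8, BAG5, PSMG1, the immunoproteasome genes and the neighbours of CCT2 were named outside this rule after their values were seen. The members and lists were chosen with earlier results of these data known. Listed genes at 0 in a group (8 for D17, 3 for HMPOS and 28 between HMPOS and POS, none of them a member) were counted without a ratio. Genes with near-identical copies are uncertain where reads were split. Promoter motifs were planned and not searched, since no sequence was used here. Python 3.11.15, numpy 2.4.6, pandas 2.3.3 and matplotlib 3.10.9 were used. Alternatives were a fold above 2, pseudocounts of 0.1 and 1, filters at 1 and 30 FPKM, centring on the median of all listed or of abundant genes, other choices of symbols and 1 row per symbol.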

Additional observations from a re-analysis of the deposited data

How the results depend on the processing

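The depth and the spread between libraries are unknown, so precision cannot be given, and genes that were not listed could change every count. No paired analysis was possible because the deposited values pool the replicates of a group. No replicate could be left out for the same reason. The tables are in the order D17, HMPOS and HMPOS against POS. With only genes past a fold of 2, chaperones numbered 1 higher and 1 lower, 0 and 0, and 3 and 2, with medians of 0.052 in D17 (reversed) and 1.58 in HMPOS against POS, and proteasome genes 0 and 0, 0 lower, and 1 and 0 (median 1.19), since fewer genes remain. Relative to the median of all listed genes, chaperone medians became -0.81, -1.03 and 0.74 and those of proteasome genes -0.87, -1.11 and 0.78, with 1 higher chaperone in HMPOS and 1 higher proteasome gene in D17. With the left-out symbols kept, 4 proteasome genes were higher in D17, and in HMPOS 1 was higher and the median was 0.033 (reversed), through PSMB9. With at least 30 FPKM in the higher group, chosen after seeing the data, 2 chaperones were higher in D17, 1 higher and 2 lower in HMPOS, and 1 lower in HMPOS against POS. All members, also those below the limit, were then set against the median of other genes with a geometric mean of at least 30 FPKM. This limit was also chosen after seeing the data. Chaperone medians became -0.10, -0.89 and 0.10 and those of proteasome genes -0.15, -0.97 and 0.14, with 10 proteasome genes lower in HMPOS against POS. The sizes of all medians thus depend on the reference. In all, 92 of 117 planned and 25 of 36 added values kept their direction within 1.5 times the main value, but 54 of the planned 92 and 3 of the added 25 could not move, because the genes and ratios were the same as in the main analysis. This holds for every value with the filter at 1 FPKM and with 1 row per symbol, and for the removal of HSPB11 outside HMPOS against POS. Such values say nothing about stability. Both pseudocounts left the medians within that range.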
